A study of Mus musculus with 8 samples.

Results

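The genes described here encode the proteins of the cytosolic ribosome, in sorted tumour cells from mice treated with gemcitabine and either an antibody against LIF (leukaemia inhibitory factor, a cytokine of the interleukin-6 family) or a control antibody. Members were all rows of the count table whose symbol begins with Rpl or Rps and a number, together with Rpsa, Rplp0, Rplp1 and Rplp2 and without the Rps6k kinases. This gave 95 of 24537 genes. Of these, 77 are ribosomal subunit proteins (31 of the small subunit, 43 of the large subunit and 3 of the P stalk), 8 are paralogs such as Rpl22l1 and Rpl3l, 9 are pseudogene or retrocopy rows such as Rpl14-ps1, and 1, Rps19bp1, encodes a binding partner of Rps19 and no subunit. Rps4l is counted among the paralogs, although its row is annotated as a pseudogene. The symbol rule leaves out Fau, which encodes a ubiquitin-like protein fused to a ribosomal protein.

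All 8 mice were FVB/NJ and carried, among their alleles, Tp53f/f, Rosa26LSL-Luc and Pdx1-Cre, so Cre is driven by the pancreatic Pdx1 promoter and both arms share the floxed p53 gene and the luciferase reporter. Treatment began at 42 to 43 days of age. All received gemcitabine, a nucleoside analogue that blocks DNA synthesis, at 50 mg/kg on days 1 and 4; antibody at 25 mg/kg followed on days 1, 3 and 5, as control IgG in 4 mice (IgG-203, IgG-343, IgG-345 and IgG-393) and as anti-LIF in 4 mice (anti-LIF-227, anti-LIF-310, anti-LIF-354 and anti-LIF-391). Libraries are named by arm and mouse number, so that IgG-203 is the library titled KPCL-PCC_203_G. Each tumour was taken on day 6, at about 48 days of age, EpCAM+ cells were sorted and polyA RNA was sequenced, with 1 library per mouse. Neither arm was free of gemcitabine, so each difference is one of the antibody within gemcitabine treatment.

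A ribosome joins a small subunit, which reads the mRNA, to a large subunit, which forms the peptide bond, and a stalk of P proteins on the large subunit recruits elongation factors. Most of its proteins are needed in equal amounts, and their mRNAs are among the most abundant in dividing cells. Many of these mRNAs begin with a run of pyrimidines (a 5′ terminal oligopyrimidine tract), through which mTOR signalling and Larp1 control their translation, and most of the genes have spawned processed pseudogenes, intronless copies of the mRNA scattered over the genome.

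Those copies bear on every count below, so the reference transcripts were searched for stretches that occur in no gene elsewhere. Each member was matched to its GENCODE M21 transcript (93 of 95 matched, 84 with a coding part). Every window of 50 bases was called the gene's own if it was found, on either strand, in no transcript of a gene at another place. Genes that overlap a member in place were left out of this search. The median subunit gene had 9.15% of its coding windows to itself and 27 of 76 had none, while the 78 mitochondrial ribosomal protein genes had a median of 100%. Rps12 shared a single coding window with 22 other genes and Rpl21 with 44. For 9 members (8 subunit genes and the paralog Rpl36al) the whole own part of the coding sequence was 1 run of 50 windows around 1 base. Every other coding window occurred in at least 1 gene elsewhere, though a single copy may differ from the gene at further bases. The following stretches of 51 bases show the base at the centre of that run, in capitals, for 4 members and a copy that differs there. They are from GENCODE M21 transcripts on GRCm38, 5′ to 3′ on the transcript strand. Copies lie at chr6:38376807-38377154 (Rpl30-ps1), chr1:181241988-181242320 (Rpl35a-ps2), chr8:107262793-107263248 (Rps18-ps3) and chrX:13202571-13203780 (Rpl3-ps1).
Rpl30: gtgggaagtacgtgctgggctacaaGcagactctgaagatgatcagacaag
Rpl30-ps1: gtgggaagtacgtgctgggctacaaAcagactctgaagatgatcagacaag
Rpl35a: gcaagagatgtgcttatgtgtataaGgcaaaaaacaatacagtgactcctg
Rpl35a-ps2: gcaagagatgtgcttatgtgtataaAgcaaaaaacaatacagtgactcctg
Rps18: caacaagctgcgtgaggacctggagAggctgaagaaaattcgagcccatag
Rps18-ps3: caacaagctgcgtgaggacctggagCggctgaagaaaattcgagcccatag
Rpl3: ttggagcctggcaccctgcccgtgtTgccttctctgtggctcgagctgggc
Rpl3-ps1: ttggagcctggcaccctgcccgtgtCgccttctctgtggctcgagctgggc
With positions counted from 1 at the first coding base, the changes from gene to copy are G96A in Rpl30, G156A in Rpl35a, A337C in Rps18 and T786C in Rpl3. The mice were FVB/NJ and the reference transcripts come from another strain. The bases of these mice at those positions were not examined, and the sources used here do not say how the authors counted reads with several alignments.

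Counts in genes ranged from 15135457 to 18972281 per library. The sorted libraries carried all 30 epithelial markers listed, but also 25 myeloid markers with counts in every library. The summed epithelial share of counts was 0.761% to 0.901% with IgG and 0.237% to 0.465% with anti-LIF. The myeloid share was 1.65% to 2.16% and 3.19% to 5.04%, and the acinar share 0.0410% to 0.251% and 0.354% to 2.05%. Library anti-LIF-227 stood apart within the anti-LIF arm, with the lowest epithelial and the highest myeloid share and a TMM scaling factor (edgeR's correction for composition) of 0.844 against 0.978 to 0.986 in the other 3. The part of these shares in any difference below was not tested, and in sorted bulk cells fewer cells of a type and less RNA per cell cannot be told apart.

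Members took up a small share of each library. With IgG the 95 genes held 0.658%, 0.704%, 0.727% and 0.748% of counts in libraries IgG-203, IgG-343, IgG-345 and IgG-393. With anti-LIF they held 0.521%, 0.629%, 0.671% and 0.633% in libraries anti-LIF-227, anti-LIF-310, anti-LIF-354 and anti-LIF-391. The arms averaged 0.709% ± 0.0385 and 0.613% ± 0.0642 (SD, n = 4 each) and overlapped, since library anti-LIF-354 lay above library IgG-203. Without library anti-LIF-227 the difference was −0.0651 percentage points in place of −0.0958. The mitochondrial ribosomal protein genes, which encode the separate ribosome of mitochondria, held 0.184% ± 0.00410 and 0.174% ± 0.0141. After TMM scaling the members summed to 6721 ± 437 CPM (counts scaled to library size) with IgG and 6466 ± 287 with anti-LIF, a gap smaller than the SD of the IgG arm.

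**Figure D1:**
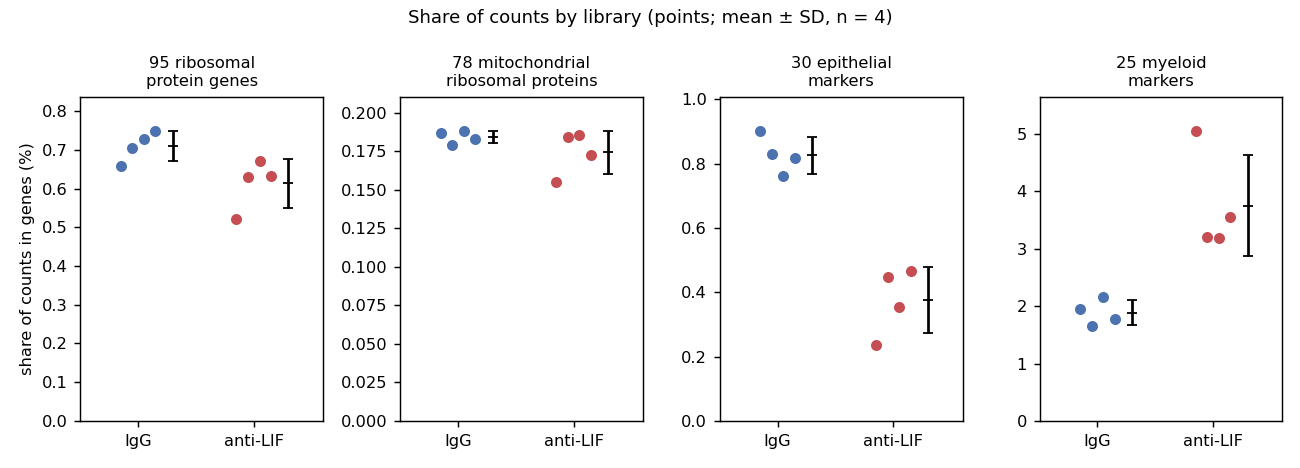
Share of counts in genes (%, y axis) held by the 95 ribosomal protein genes, the 78 mitochondrial ribosomal protein genes and the epithelial and myeloid marker lists, by arm; points are libraries, bars the mean ± SD (n = 4). The ribosomal protein shares overlap between the arms, while the epithelial and myeloid shares do not.

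Levels per length differed widely among genes for proteins most of which the ribosome holds in equal amounts. Mean FPKM over the 8 libraries (reads scaled to transcript length and library size) was lowest for Rps23, a protein of the decoding centre, at 0.308, with a median of 12.3 over the 77 subunit genes. Among the 3 highest were Rpl8 with 538 ± 67.4 (SD over 8 libraries) and Rplp1 with 483 ± 50.1. Rpl8 lay above Rplp1 in 7 of 8 libraries, so this order is not firm. Of 69 neighbouring pairs in the order of 70 subunit genes with the same transcript in both tables, 9 kept their order in all 8 libraries. Of the subunit genes that could be tested, the lowest were Rpl29 at 0.508, Rps16 at 0.775 and Rpl21 at 0.913 FPKM. In counts, 25 of the 77 subunit genes averaged under 50 reads a library and 22 over 1000. The count of subunit genes under 10 reads was 5 to 7 in the IgG libraries and 11 to 13 in the anti-LIF libraries. These are reads before scaling, and the same count was not made over all genes. Counts in genes averaged 17506000 ± 1145900 with IgG and 16366000 ± 1604500 with anti-LIF (SD, n = 4 each). The part of depth in this count was not tested.

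The level followed the share of coding sequence that is a gene's own. Members with at least 20% own coding windows had a median of 180 FPKM, those with none a median of 2.29 and those between a median of 19.9. Across 76 subunit genes, which share the same 8 libraries, Spearman's rho between the share and the mean FPKM was 0.81, given as a description. It was 0.80 with windows of 36, 75 or 100 bases. Rpl8 and Rps3, a small subunit protein at the mRNA entry site, had own shares of 91.3% and 91.9%. Rps23 and Rps16 had 0%. The exception at 0% was Rpl41, the smallest ribosomal protein with only 29 coding windows, at 121 FPKM. The mitochondrial ribosomal protein genes had a median of 16.0 FPKM and reached 61.5, for Mrpl33. In these counts the order of mRNA amounts and the order of own sequence cannot be told apart.

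**Figure D2:**
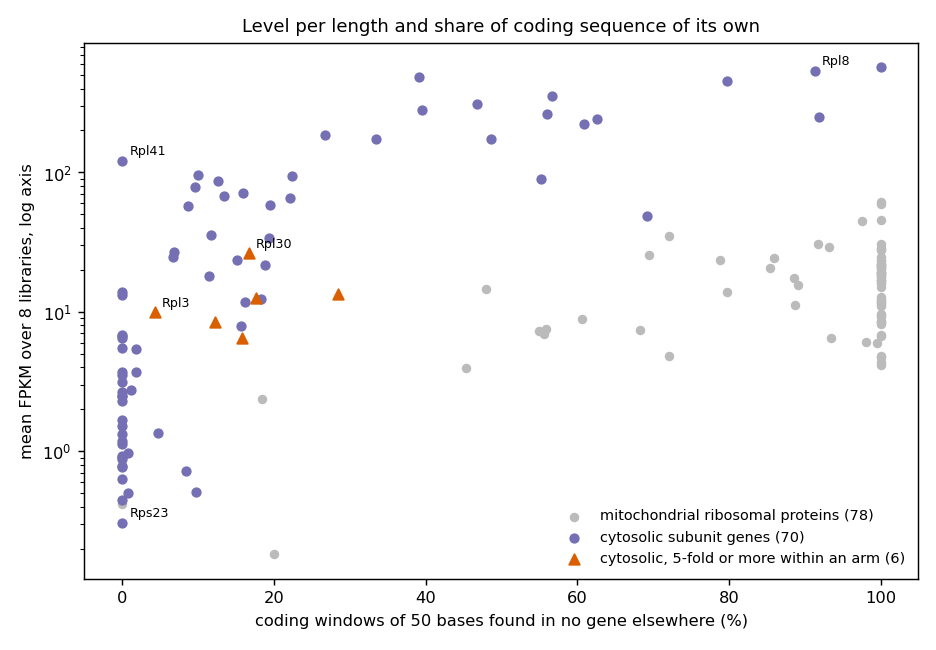
Mean FPKM over 8 libraries (y, log axis) against the share of 50-base coding windows found in no transcript of a gene elsewhere (x, %); each point is a gene, in violet the cytosolic subunit genes, in orange those whose level ranged 5-fold or more within an arm, in grey the mitochondrial ribosomal protein genes. Cytosolic genes with no window of their own lie low, apart from Rpl41, and Rpl8, with 91.3%, lies high.

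The comparison of the arms used edgeR's quasi-likelihood test on the counts, with Benjamini-Hochberg adjustment over all 14711 genes that passed edgeR's filter on low counts and a threshold of 0.05. The filter kept 79 members. Of these, 6 rose with anti-LIF, among them Rpl15, Rpl31, Rpl27a, Rps6 and Rpl22l1, and 4 fell, namely Rps4l, Rpl5, Rpl27 and Rpl32. That is 12.7% of the tested members, against 32.2% of all tested genes in either direction (15.7% higher and 16.5% lower). The median log2 fold change of the 79 members was −0.046 (quartiles −0.18 and 0.075; −0.089 without IgG-203 to −0.0097 without anti-LIF-227 with 1 library left out), beside −0.0063 over all tested genes, and 54 of the 79 lay within 0.25 of 0. With any single library left out, 4 to 6 members rose and 2 or 3 fell; without library anti-LIF-227 they were 6 and 2, without IgG-345 they were 4 and 2, and without anti-LIF-354 they were 4 and 3. Among all tested genes with a transcript under 1000 bases 28.8% passed. The 16 members that were not tested held few reads; Rps23 had 1 to 6 per library, Rpl36a 2 to 7, Rpl38 1 to 6 and Rpl39l, a paralog of Rpl39, 0 to 7, and the 1 not seen was Rpl10l, a paralog of Rpl10, with 0 in every library.

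**Figure D3:**
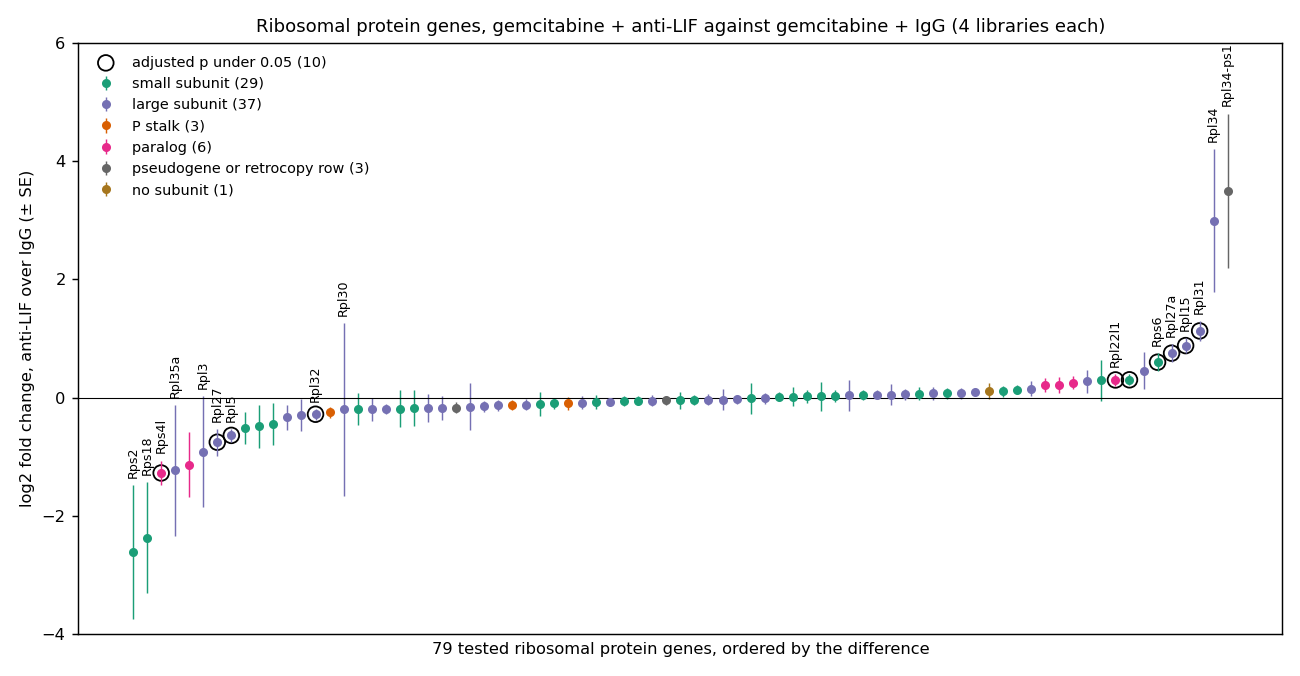
Log2 fold change, anti-LIF over IgG, with its SE (y) for the 79 tested members in order of the difference (x); colour gives the class and a ring an adjusted p under 0.05. Most members lie close to 0, and the largest differences, of Rps2, Rps18, Rpl34 and Rpl34-ps1, carry wide errors and no ring; the widest error is that of Rpl30, at −0.20.

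The called members were also sorted by how much coding sequence was their own. Of the 22 tested members with at least 20% own coding windows, 2 passed (9.09%), among them Rpl32. Of the 30 with a smaller share above 0, 1 passed (3.33%), Rpl22l1. Of the 21 with none, 6 passed (28.6%), which were Rpl15, Rpl31, Rpl27a, Rps6, Rpl5 and Rpl27. For Rps4l, a row annotated as a pseudogene, no coding part was annotated. Among all tested genes 32.2% passed, and among those with a transcript under 1000 bases 28.8%. The share of members with no own coding window thus lay near these, and the shares of the other groups lay below. The difference between the shares of these groups was not tested.

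Small subunit genes showed 2 that rose and none that fell among 29 tested, with a median log2 fold change of −0.039. Over the 20 alternative settings the number that rose was 0 to 2 and the number that fell 0. Rps6, the subunit protein that S6 kinase phosphorylates downstream of mTOR, stood at 3.67, 4.94, 4.56 and 4.49 CPM in libraries IgG-203, IgG-343, IgG-345 and IgG-393. In libraries anti-LIF-227, anti-LIF-310, anti-LIF-354 and anti-LIF-391 it stood at 6.07, 6.74, 7.04 and 6.92 CPM. The lowest anti-LIF value exceeded the highest IgG value, and Rps6 rose 1.51-fold (log2 0.60 ± 0.15 SE, adjusted p = 0.0174). It had 64 to 114 reads over the 8 libraries. With library sizes alone and no TMM factor it no longer passed (adjusted p = 0.0667).

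Other small subunit genes named here did not pass. Rps3 averaged 608 ± 50.9 CPM with IgG and 568 ± 30.9 with anti-LIF (log2 −0.097 ± 0.098, adjusted p = 0.472). Rps19, whose loss of 1 copy causes Diamond-Blackfan anaemia in people, averaged 46.5 ± 6.41 and 44.1 ± 3.40 (log2 −0.076 ± 0.11). Rps4x, encoded on the X chromosome, averaged 117 ± 8.86 and 114 ± 4.58, Rpsa, also known as the laminin receptor precursor, 6.40 ± 0.587 and 6.48 ± 0.959, and Rps27 1.78 ± 0.390 and 1.25 ± 0.310. In each of these the arms overlapped.

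Large subunit genes showed 3 that rose and 3 that fell among 37 tested, with a median of −0.050. Rpl15, needed for processing of the large subunit's RNA, stood at 11.9, 9.17, 10.5 and 11.1 CPM with IgG. With anti-LIF it stood at 20.9, 17.8, 21.4 and 18.5 CPM. The arms lay well apart, and Rpl15 rose 1.84-fold (log2 0.88 ± 0.12, adjusted p = 0.00362). Rpl31 stood at 6.02, 4.78, 5.17 and 7.13 CPM with IgG and at 11.7, 11.7, 14.7 and 12.4 with anti-LIF. It rose 2.19-fold, the largest rise among the 10 (log2 1.13 ± 0.16, adjusted p = 0.00389). Rpl27a stood at 15.3, 12.8, 13.0 and 17.2 CPM with IgG and at 29.0, 22.6, 26.1 and 20.5 with anti-LIF. It rose 1.68-fold (log2 0.75 ± 0.15, adjusted p = 0.00787).

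Rpl5, which with Rpl11 and 5S rRNA binds Mdm2 and so stabilises p53 when ribosome assembly fails, stood at 19.8, 22.2, 20.2 and 19.8 CPM with IgG. With anti-LIF it stood at 14.2, 11.9, 12.1 and 14.6 CPM. Every anti-LIF library lay below every IgG library, and Rpl5 fell 1.56-fold (log2 −0.64 ± 0.11, adjusted p = 0.00538). Its partner Rpl11 had 26 to 34 reads per library and averaged 1.65 ± 0.112 CPM with IgG and 2.0 ± 0.252 with anti-LIF (log2 0.27 ± 0.20, adjusted p = 0.307).

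Rpl27 and Rpl32 also fell. Rpl27 stood at 2.29, 1.76, 1.92 and 1.68 CPM with IgG and at 1.09, 0.868, 1.36 and 1.21 with anti-LIF. This rests on 13 to 40 reads per library, and the difference of log2 −0.75 ± 0.23 (adjusted p = 0.0351) no longer passed when any of the 8 libraries was left out (adjusted p up to 0.0846). Rpl32 stood at 142.0, 165.0, 174.8 and 182.2 CPM with IgG and at 130.5, 133.2, 145.5 and 137.6 with anti-LIF. Library anti-LIF-354 lay above library IgG-203, so the arms overlapped, at log2 −0.28 ± 0.092 (adjusted p = 0.0454). Rpl32 no longer passed without any 1 of the other 7 libraries (adjusted p up to 0.11) but passed without library IgG-203.

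Of the large subunit genes that did not pass, Rpl8 averaged 605 ± 41.9 CPM with IgG and 545 ± 25.6 with anti-LIF (log2 −0.15 ± 0.092, adjusted p = 0.242). Rpl22 averaged 127 ± 7.01 and 136 ± 2.57, Rpl13a, which can leave the ribosome to silence inflammatory mRNAs, 288 ± 24.8 and 281 ± 11.1, and Rpl7 112 ± 5.06 and 107 ± 3.77. Rpl23, another Mdm2 binding protein, averaged 89.7 ± 9.36 and 89.1 ± 5.02, and Rpl10 and Rpl39 averaged 6.00 ± 0.868 and 37.7 ± 1.83 with IgG against 4.76 ± 1.24 and 38.9 ± 2.23 with anti-LIF. The adjusted p of these 7 genes ran from 0.242 for Rpl8 to 0.939 for Rpl23, and their arms overlapped.

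**Figure D4:**
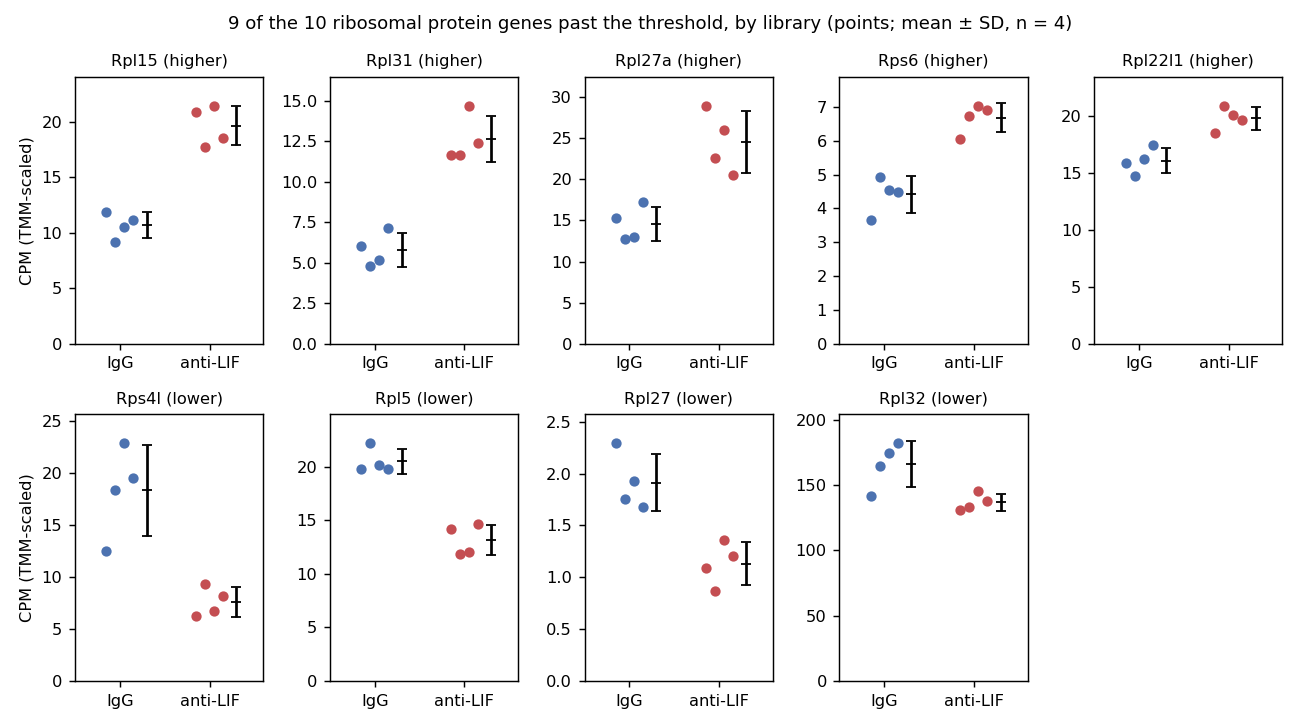
CPM after TMM scaling (y, from 0) of 9 of the 10 members past the threshold, by arm (x); points are libraries and bars the mean ± SD (n = 4). The arms are apart in all but Rpl32, in genes picked for passing the threshold. Of all tested genes, 17.6% had every anti-LIF library above every IgG library and 18.2% had every one below. Rps6 and Rpl27 sit at a few CPM.

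The 3 P stalk genes all lay below 0 and none passed in edgeR, while 1 had an unadjusted p under 0.05 and DESeq2 and limma-voom each called 1, Rplp0. Rplp0, the base of the stalk and a common reference gene in quantitative PCR, stood at 500.6, 512.1, 512.6 and 516.3 CPM with IgG. With anti-LIF it stood at 388.1, 435.0, 464.1 and 430.4 CPM. The arms did not overlap, yet the difference of log2 −0.25 ± 0.086 missed the threshold (adjusted p = 0.0539). It passed under 8 of 20 alternative settings and lay below 0 in all 20. Rplp1 averaged 290 ± 15.4 and 272 ± 36.9 CPM (log2 −0.092 ± 0.11), and Rplp2 98.3 ± 9.25 and 89.9 ± 4.41 (log2 −0.13 ± 0.085).

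Among the 8 paralogs, 6 were tested, of which 1 rose and 1 fell. The 1 that fell, Rps4l, is the row annotated as a pseudogene. Rpl22l1, the paralog that Rpl22 represses, stood at 15.9, 14.7, 16.3 and 17.4 CPM with IgG and at 18.5, 20.9, 20.1 and 19.6 with anti-LIF. The arms did not overlap, and it rose 1.23-fold (log2 0.30 ± 0.096, adjusted p = 0.0421). The call was lost without any 1 of libraries IgG-203, IgG-343, IgG-345, anti-LIF-310, anti-LIF-354 and anti-LIF-391 (adjusted p up to 0.103). It was also lost with library sizes alone, upper quartile factors, header totals, no filter and both FPKM fits (adjusted p up to 0.369). Rps4l stood at 12.4, 18.3, 22.8 and 19.5 CPM with IgG and at 6.19, 9.28, 6.67 and 8.13 with anti-LIF. It fell 2.42-fold, with no overlap (log2 −1.27 ± 0.21, adjusted p = 0.00485). Rpl3l, known from heart and skeletal muscle, had 3 to 61 reads and a difference of log2 −1.13 ± 0.55 (adjusted p = 0.145). Rps27l, a p53 target, averaged 24.8 ± 1.68 and 28.8 ± 5.58 CPM, Rpl7l1, a factor of ribosome assembly, 63.6 ± 8.75 and 75.6 ± 5.33, and Rpl36al 13.1 ± 1.43 and 15.2 ± 0.897, with adjusted p of 0.253, 0.108 and 0.198.

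Where the reads of the called members could lie was checked against sequence and neighbours. Rpl15, Rpl31, Rpl27a and Rpl5 have no own coding window, but their 3′ untranslated parts are almost wholly their own. The own windows there are 1139 of 1139, 529 of 529, 589 of 589 and 956 of 960. Rps6 and Rpl27 have no own coding window either, and their 3′ untranslated parts hold no whole window. Of all their windows 15.4% and 35.9% were their own. These counts set aside genes that overlap in place. The last 415 bases of Rpl31 (chr1:39367851-39371910 on mm10, plus strand) overlap Tbc1d8 on the minus strand, which rose by log2 0.65 ± 0.080 (adjusted p = 0.00295). The span of Rpl5 (chr5:107900528-107909005, plus strand) overlaps Fam69a on the minus strand by 964 bases, and Fam69a did not pass (log2 −0.12 ± 0.090, adjusted p = 0.323). Rps4l (chr6:148354656-148355596, plus strand) lies inside Tmtc1 on the minus strand, which did not pass either (log2 −0.28 ± 0.45, adjusted p = 0.660). The sources used here do not say whether counting used the strand. Without it, reads from these overlaps and from the antisense neighbours cannot be told apart. Rpl15 (chr14:18267823-18270986) and Rpl27a (chr7:109519195-109522369) overlap no other row that was checked. Short rows and rows of microRNAs and small nucleolar RNAs were left out of this check.

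Pseudogene and retrocopy rows held reads too. Rpl14-ps1, a copy of a large subunit gene, averaged 217 ± 23.0 CPM with IgG and 193 ± 10.9 with anti-LIF (log2 −0.17 ± 0.096, adjusted p = 0.206), more than Rpl14 itself at 70.8 to 88.0 CPM with IgG. It lies within Trpm4 on the other strand, an ion channel gene that fell (log2 −0.75 ± 0.089, adjusted p = 0.00284). Rps15a-ps4, Rps15a-ps6, Rps19-ps3 and Rpl31-ps12 were under the filter. Rps19bp1 averaged 13.2 ± 1.68 and 14.2 ± 1.54 CPM (log2 0.11 ± 0.13, adjusted p = 0.568).

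A further 7 members were high in some libraries and low in others of the same arm. They were chosen after their values were seen, as those with a range of at least 5-fold within an arm and at least 100 reads in the highest library. Among all tested genes 427 (2.9%) met this rule. Rpl30 had 26, 675, 640 and 22 reads in libraries IgG-203, IgG-343, IgG-345 and IgG-393. It had 19, 19, 953 and 21 in libraries anti-LIF-227, anti-LIF-310, anti-LIF-354 and anti-LIF-391. So 3 libraries, from both arms, were high and 5 were low, with nothing between. Rpl35a had 243, 218, 306 and 16 reads with IgG and 9, 18, 250 and 10 with anti-LIF. Its 4 high libraries include the 3 of Rpl30. Rpl3, which shapes the peptidyl transferase centre, had 35, 350, 804 and 458 reads with IgG and 28, 38, 299 and 348 with anti-LIF, so 5 libraries were high and 3 low.

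In the other 4 a single library was high. Rps18 had 589 reads in library IgG-345 and 18 to 44 in the other 7. Rps2, at the mRNA entry of the small subunit, had 966 in the same library and 27 to 43 elsewhere. Without that library its difference turned from log2 −2.61 to 0.16. Rpl34 had 912 in library anti-LIF-354 and 25 to 37 elsewhere. The row Rpl34-ps1 had 901 there and 19 to 29 elsewhere, and its coordinates are those of Rpl34, so both rows count the same stretch. Libraries IgG-345 and anti-LIF-354 were thus each high in several of these genes, while Rpl8 ranged from 514 to 638 CPM over all 8 libraries.

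None of the 7 passed in edgeR, where 4 had an unadjusted p under 0.05 and the adjusted p ran from 0.0695 for Rpl34-ps1 to 0.928 for Rpl30. None passed in limma-voom or in DESeq2 either, and DESeq2 gave 4 of them no adjusted p. Of the 9 members whose own coding windows were 1 run around 1 base, 4 were among these 7, namely Rpl30, Rpl35a, Rps18 and Rpl3. Among 61 other tested subunit genes it was 2, Rps2 and Rpl34. This count is a description, since the 7 were picked by their values. The other 5 of the 9, among them Rpl18, Rpl23, Rpl36al and Rpl7a, did not meet the rule. Rpl23 ran from 75.9 to 96.3 CPM. The own stretch was 50 windows in all 9. Rps3a1 showed a smaller step, at 61.5 and 62.4 CPM in library IgG-203 and library anti-LIF-310 and at 33.8 to 36.3 in the other 6. It was named after its values were seen.

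**Figure D5:**
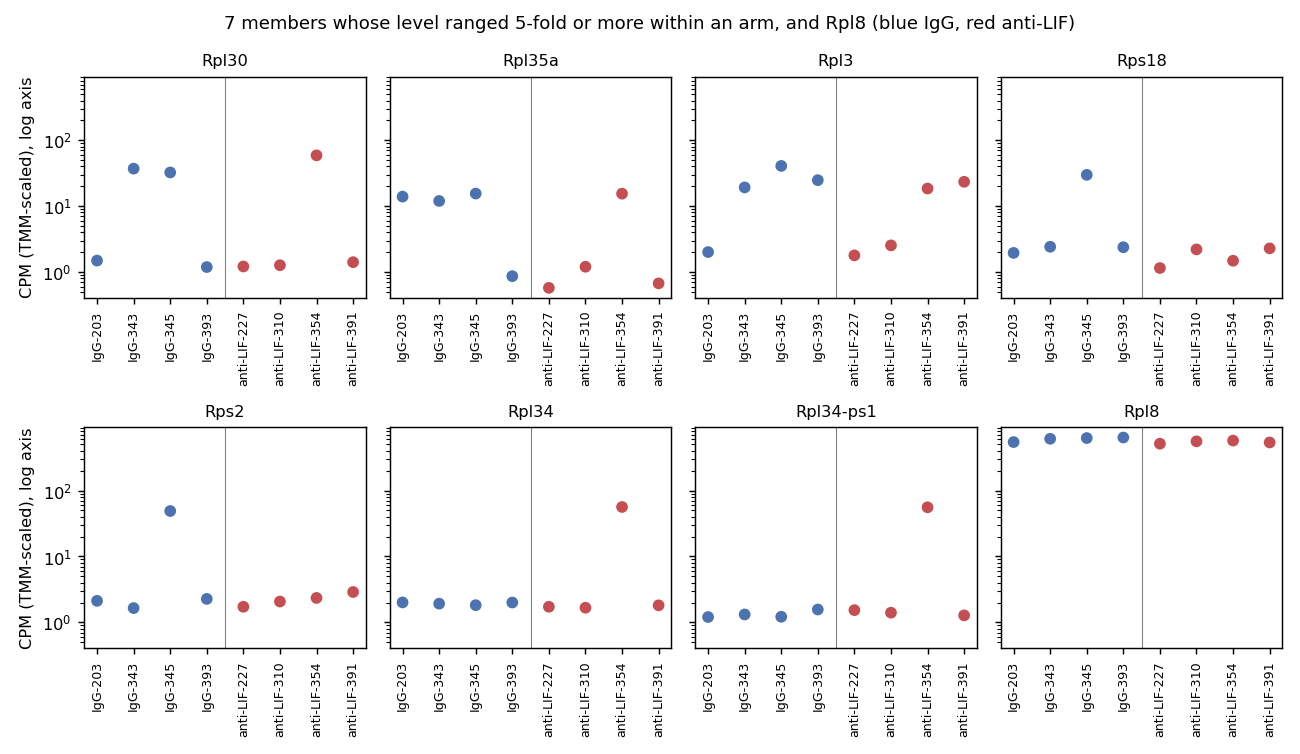
CPM after TMM scaling (y, log axis) in each of the 8 libraries (x; blue IgG, red anti-LIF) for the 7 members with a range of 5-fold or more within an arm, and for Rpl8. Rpl30, Rpl35a and Rpl3 are high in libraries of both arms, Rps18 and Rps2 in IgG-345 only, Rpl34 and Rpl34-ps1 in anti-LIF-354 only, and Rpl8 is level.

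The start sites of the members were read from RefSeq promoters on GRCm38.p6, which cover 250 bases before and 50 after each annotated start, for 69 members of which 57 are subunit genes. Runs of C or T within 5 bases of the start were measured, and a run that began further upstream was counted only from 5 bases before it. A run of at least 8 bases by this count, the form of a 5′ terminal oligopyrimidine tract, was present in 35.1% of subunit genes. It was present in 2.90% of 69 mitochondrial ribosomal protein genes and in 6.80% of 27025 genes. The ETS core CCGGAAG, on either strand, was present in 42.1%, 37.7% and 9.93%, AAGATGG, the YY1 motif, in 15.8%, 18.8% and 7.28% and TATAAA in 10.5%, 7.25% and 15.7%. The share with a pyrimidine run was thus far from that of the mitochondrial genes, and the share with an ETS core was close to it. A match describes the letters and not a site in use. Of the 10 called members 7 had an entry. Their 40 bases around the start are printed because they show how unequal the run is among genes that passed, with the run in capitals and the annotated start at base 21.
Rpl15, higher, chr14:18270967-18271006, minus strand: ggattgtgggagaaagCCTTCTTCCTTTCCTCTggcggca
Rpl27a, higher, chr7:109519175-109519214, plus strand: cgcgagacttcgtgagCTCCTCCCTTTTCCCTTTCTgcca
Rpl31, higher, chr1:39367831-39367870, plus strand: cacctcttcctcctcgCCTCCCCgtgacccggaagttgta
Rps6, higher, chr4:86857348-86857387, minus strand: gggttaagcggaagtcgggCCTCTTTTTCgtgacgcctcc
Rpl22l1, higher, chr3:28805488-28805527, plus strand: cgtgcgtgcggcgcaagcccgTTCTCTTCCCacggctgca
Rpl5, lower, chr5:107900508-107900547, plus strand: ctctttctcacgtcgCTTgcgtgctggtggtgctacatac
Rpl27, lower, chr11:101442225-101442264, plus strand: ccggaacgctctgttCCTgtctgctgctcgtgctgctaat
Counted so, the runs are 17, 20, 7, 10 and 10 bases in the 5 that rose and 3 bases in both that fell. The run of Rpl27 is cut by that limit, since the bases just before it are T as well. These 7 genes were picked for passing the threshold. Over the tested subunit genes with an entry, the 17 with a run of 8 or more had a median log2 fold change of 0.020. The 34 with a shorter run had −0.031, so both medians lay close to 0. Of the 17, 3 rose and 0 fell, and of the 34, 1 rose and 2 fell. Among all tested genes 15.7% rose and 16.5% fell. Whether the run goes with the direction was not tested. A run in the annotated sequence does not show where transcripts began in these cells.

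Other genes of the translation machinery were read from the same test, in which 15.7% of all genes rose and 16.5% fell. Of 20 translation factors 4 (20%) rose and 0 fell (median −0.058), among them the helicase Eif4a2 (log2 0.57 ± 0.093, adjusted p = 0.00485) and the elongation factor subunits Eef1d (0.31 ± 0.078) and Eef1g (0.30 ± 0.099). With library sizes alone this turned to 1 that rose and 4 that fell. The elongation factors Eef1a1 and Eef2 averaged 1789 ± 159 and 2351 ± 117 CPM with IgG and 1682 ± 81.2 and 2112 ± 73.9 with anti-LIF, with adjusted p of 0.587 and 0.311. Fau averaged 4.02 ± 0.900 CPM with IgG and 2.92 ± 1.59 with anti-LIF and did not pass (adjusted p = 0.367). Of 49 ribosome assembly genes 2 rose, Heatr1 (0.46 ± 0.083) and Nop10, and 3 fell, among them Nop14 (−0.40 ± 0.073) and Nob1. Of 18 genes of RNA polymerase I and Myc 1 rose, Znrd1, and 2 fell, Taf1d and Polr1a, while Myc did not pass (−0.41 ± 0.22, adjusted p = 0.184). Of 12 genes for import and assembly of ribosomal proteins 2 rose, Pdcd2l and Ipo4, and 0 fell.

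The host genes of small nucleolar RNAs, whose intron-encoded RNAs guide modification of ribosomal RNA, fell in several cases. Of 14 tested, 0 rose and 6 fell, with a median of −0.52. Snhg3 fell from 19.4 ± 1.62 to 8.13 ± 1.92 CPM (log2 −1.26 ± 0.18, adjusted p = 0.00365), and Snhg4 and Snhg7 fell by log2 −1.29 ± 0.28 and −1.06 ± 0.24. Over the 20 alternatives 3 to 11 fell and 0 rose, with 3 when library IgG-343 was left out and 4 without library anti-LIF-354. Of 22 genes of the mTOR pathway 4 (18.2%) fell, near the 16.5% of all genes, and 0 rose. They were Rictor, Rptor, the mTOR inhibitor Ddit4 (log2 −1.16 ± 0.29, adjusted p = 0.0172) and Pdcd4, which blocks Eif4a. Over the 20 alternatives 2 to 8 fell, with 8 under library sizes alone and 2 without IgG-343 or anti-LIF-354. Mtor and Larp1 did not pass (log2 −0.070 ± 0.071 and 0.10 ± 0.070). Of 11 genes of the Mdm2 and p53 response to ribosomal proteins 5 rose and 1 fell, among them Trp53 (log2 0.72 ± 0.11, adjusted p = 0.00406), whose allele is floxed in these mice, and Sesn1 (1.67 ± 0.31). Only 2 rose, and 2 fell, with library sizes alone or header totals, 2 rose in both FPKM fits and 3 without IgG-343 or IgG-393. Of 76 mitochondrial ribosomal protein genes 7 rose and 0 fell (9.21%), with a median of 0.053, led by Mrps15 and Mrps21 (log2 0.58 ± 0.10 and 0.66 ± 0.13).

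These lists stand beside larger differences in cell type markers. Of 30 epithelial genes 25 fell (median −0.91), of 25 myeloid genes 19 rose (median 1.23) and of 30 acinar genes 25 rose (median 3.52). Of 12 lymphoid genes 5 rose, of 13 fibroblast genes 1 and of 11 endothelial genes 2. No erythroid marker passed the filter. Stress and RNA quality genes gave 2 that rose and 1 that fell of 13. When libraries were scaled to the summed counts of the subunit genes, so that a call is a change relative to the other members, 6 members rose, beside 15.1% of all genes, and 2 fell, Rps4l and Rpl5 (adjusted p = 0.00513 and 0.0150), beside 12.3%. Rpl27 and Rpl32 no longer passed there (adjusted p = 0.0654 and 0.0719). In either direction 27.4% of all genes passed.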

How the data were processed

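RNA-seq of 8 libraries was used, 4 per arm. Per the submitters' processing notes, reads were checked with FastQC 0.11.2, aligned to mm10 with STAR 2.4.0k and counted with HOMER. The labels do not give its version, the strand setting, the read length or the treatment of reads with several alignments. Raw counts per gene, for 1 transcript each, were deposited by the authors. The deposited FPKM table holds FPKM, which matched count, transcript length and header total within 0.002 in all 168000 shared values; 86 of the 95 members have the same transcript in both tables. No column of single samples was left unused (0).

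Counts were tested with edgeR 4.0.16 (TMM, filterByExpr, glmQLFit and glmQLFTest) on R 4.3.3, anti-LIF against IgG with no covariate, Benjamini-Hochberg over all 14711 tested genes, threshold 0.05. DESeq2 1.42.0, limma 3.58.1 with voom weights or on log2(FPKM + 1) and log2(FPKM + 0.1), other scalings and filters, and each library left out were alternatives. The fit was tested on simulated data. Each SE of a log2 fold change was computed as its absolute value divided by the square root of the test's F statistic. It was not an output of the test. Levels between genes are FPKM and values within a gene are TMM-scaled CPM. Own windows were computed from GENCODE M21 transcripts, and promoters are from RefSeq (GRCm38.p6). Counts in genes were 15135457 to 18972281 per library. Genes with few reads carry the larger counting error, and the labels name no molecular identifiers.

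The members and lists were chosen with earlier results of these data known. Named genes were up to 10 members past the threshold per direction, the 3 highest and 3 lowest FPKM and 3 largest coefficients of variation with IgG among tested subunit genes, a fixed list of members named whatever their p (such as Rps6, Rpl5, Rpl11 and Rplp0), every row named -ps or encoding no subunit, up to 4 genes past the threshold with the lowest p per other list, and Fau, Eef1a1, Eef2, Myc, Mtor and Larp1. Some alleles, genes and sequences are not reported here.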

Additional observations from a re-analysis of the deposited data

Results flagged for a closer look

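In 7 of 96 arms tested with Dixon's criterion for 4 samples, 1 library lay far from the other 3. By chance about 1 arm in 20 is flagged. All flags but that of Rpsa fell on members picked for a wide range within an arm, so this rate does not apply to them. Library anti-LIF-354 held 58.9 CPM of Rpl30 (others 1.21 to 1.41), 56.4 CPM of Rpl34 (1.67 to 1.81), 55.7 CPM of the row Rpl34-ps1 (1.28 to 1.53), 15.4 CPM of Rpl35a (0.575 to 1.20) and 7.91 CPM of Rpsa (5.94 to 6.11). Library IgG-345 held 48.9 CPM of Rps2 (1.65 to 2.27) and 29.8 CPM of Rps18 (1.95 to 2.42). Rpl34 and Rpl34-ps1 share coordinates and count the same stretch, so they are 1 observation. The cause was not tested.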

How the results depend on the processing

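Of 1860 values of named genes under alternatives, 1665 kept direction and side of the threshold, 146 lost the call, 11 gained it and 38, all of 9 genes that never passed, changed sign. These were, with library sizes alone, header totals, log2(FPKM + 1) and log2(FPKM + 0.1) in turn, Rpsa (−0.14, −0.11, −0.084, −0.11), Rpl22 (−0.055, −0.026, −0.026, −0.027), Rpl39 (−0.11, −0.076, −0.081, −0.082), Rps19bp1 (−0.049, −0.022, −0.019, −0.021) and Larp1 (−0.054, −0.025, −0.026, −0.028), all above 0 in the main test, besides Rpsa with upper quartile factors (−0.0096) and Rpl23 in DESeq2 (0.0031). With 1 library left out, 5 turned: Rpl29 ran from −0.42 to 0.13, Rpl30 from −3.78 (without anti-LIF-354) to 0.42, Rps2 from −2.98 to 0.16 (without IgG-345), Rpsa from −0.085 to 0.066 and Rpl23 from −0.083 to 0.022. Rpl15, Rpl31, Rpl27a, Rps4l and Rpl5 passed under all 19 alternatives run on single genes. Counts that moved by more than 1.5 times follow, and the cause was not tested. All genes that rose, 2303, were 1430 with library sizes alone, 1527 with header totals, 1535 on log2(FPKM + 0.1) and 1467 to 2218 with 1 library left out; those that fell, 2428, were 1507 to 2136 with 1 left out, the lowest without library IgG-343 (1507) and library anti-LIF-354 (1521). Members that rose, 6, were 3 with library sizes alone and 1 among those with at least 20% own coding windows, a choice made after seeing the data; members that fell, 4, were 7 with library sizes alone, 2 scaled to the subunit genes, 2 with no filter, 1 with at least 20% own windows and 2 to 3 with 1 library left out. Library sizes alone moved the median of all genes to −0.16 and of the members to −0.20, and header totals to −0.14 and −0.17; scaled to the subunit genes, added after seeing the data, the members' median was 0.018. The median level of the subunit genes was 35.4 as TPM against 12.3 as FPKM. No paired analysis was possible because the arms share no mouse number. Genes under 50 reads, 25 of the 77 subunit genes, are limited by depth.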
